A study of Saccharomyces cerevisiae with 12 samples.

Results

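The genes of glycogen metabolism in budding yeast were followed in wildtype and anc1Δ cells with and without methyl methanesulfonate (MMS), an agent that methylates DNA. The genes were taken by symbol, for synthesis, branching, breakdown and phosphatase targeting, and the set was put together with earlier results of these arrays known. All 10 were found among the 5656 genes that the arrays read, each from its brightest probe set, the group of short array probes that report on a transcript. They are GLG1 and GLG2, GSY1 and GSY2, GLC3, GAC1 and PIG2, GPH1, GDB1, and SGA1.

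Glycogen is the branched glucose polymer that yeast lays down as cells approach the end of glucose or meet stress, and draws on afterwards. Glycogenin starts a chain, glycogen synthase lengthens it and a branching enzyme adds branch points, while glycogen phosphorylase and the debranching enzyme take the polymer apart. Glycogen synthase is active when dephosphorylated, which is the work of the type 1 protein phosphatase Glc7 brought to it by targeting subunits. Many of these genes are known targets of the general stress response and are held down by protein kinase A.

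The 4 groups held 3 Affymetrix YG-S98 arrays each. The wildtype was BY4741 (MATa his3Δ1 leu2Δ0 met15Δ0 ura3Δ0), and anc1Δ is the same background without ANC1 (TAF14), which encodes a subunit shared by several transcription and chromatin complexes. The methods describe the array strain as carrying a G418 resistance marker at anc1, whereas the list of strains gives a URA3 marker there. Cells without MMS were grown into log phase in YPD, with 3 independent colonies for each strain. For the arrays, dose and duration of MMS were not given in the sources used here, nor was it said whether treated cultures were independent. The p-values of comparisons with treated cells therefore cover the spread of these samples alone, and that spread may be technical. The source names of the 3 treated wildtype samples call them untreated, and the descriptions of 3 anc1Δ samples (untreated replicates 1 and 3 and MMS replicate 3) name wildtype. The titles were followed, so that every value given for treated wildtype rests on the title alone.

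The deleted gene was low in every library labelled anc1Δ. TAF14 measured 261, 356 and 237 on the 3 untreated wildtype arrays and 6.87, 15.7 and 8.71 on the untreated anc1Δ arrays. With MMS it measured 175 to 198 in wildtype and 8.07 to 14.2 in anc1Δ. URA3, deleted in this background, measured between 7.23 and 17.2 on all 12 arrays of both strains. The values are RMA intensities, a relative unit in which levels of different probe sets cannot be set against each other, so that only changes are compared between genes. Array medians ran from 104 to 109 in untreated cells, from 114.7 to 119.8 in treated wildtype and from 105.9 to 107.9 in treated anc1Δ. The actin controls read the 3′ and the 5′ end of a transcript, and their ratio rises as RNA breaks. It was 1.47 to 1.85 on the untreated arrays and 3.31 to 3.998 on the treated ones, with a rise in both strains, and its part in the MMS results below was not tested. The same ratio for the SPT15 controls was 3.57 to 4.65 on the untreated arrays. In treated wildtype the SPT15 ratio was 4.37 to 4.94, overlapping the untreated arrays, and in treated anc1Δ it was 5.16, 4.69 and 7.09. RNA came from whole cultures, so a change in every cell and a change in the share of cells that express a gene cannot be told apart.

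Without MMS most of the glycogen genes were higher in anc1Δ. By limma, with a call at a Benjamini-Hochberg adjusted p under 0.05 over all probe sets and a fold of at least 1.5, 7 of the 10 were called, against 23.5% of all genes. All 7 were higher in anc1Δ, a direction in which 11.1% of all genes were called, and none was lower (12.4% of all genes). The 7 were the synthase GSY2, the branching enzyme GLC3, the phosphatase subunits GAC1 and PIG2, the degradative genes GPH1 and GDB1, and SGA1. The median log2 change of the 10 was 1.45, beside -0.10 over all genes. The arrays of the strains did not overlap for 8 of the 10 (60.7% of all genes).

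MMS moved these genes in different ways in the 2 strains. In wildtype 6 of the 10 were called (48.5% of all genes), 4 of them higher (27.7% of all genes) and 2 lower (20.8% of all genes), with a median log2 change of 0.46 beside 0.08 over all genes. Those called higher were GSY2, PIG2, GDB1 and SGA1, and those called lower were GSY1 and GAC1. In anc1Δ 7 were called (31.7% of all genes), all of them lower (15.7% of all genes) and none higher (16% of all genes), with a median of -1.17 beside -0.01. The 7 were GSY1, GSY2, GLG1, GLC3, GAC1, GPH1 and GDB1. Treated and untreated arrays did not overlap for 5 of the 10 in wildtype (74.6% of all genes) and for 9 in anc1Δ (70.7% of all genes).

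The difference between these responses, tested as an interaction, was below 0 for all 10 genes. Over all 5656 genes it was above 0 for 2452. Of the 10 glycogen genes 8 were called, against 23.8% of all genes. In the direction of the 8, a lower response in anc1Δ, 14.2% of all genes were called, and 9.57% in the other. The median difference was -1.59 on the log2 scale, beside -0.08 over all genes. The comparisons are not independent: the untreated arrays of both strains enter the strain comparison, the MMS responses and their difference, so that a gene high in untreated anc1Δ cells is by construction drawn towards a negative difference.

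Under MMS the strains differed in fewer of the genes, with 4 called (29.3% of all genes), 2 of them higher in anc1Δ (10.9% of all genes), 2 lower (18.4% of all genes). The median log2 change was -0.22, beside -0.18 over all genes. GAC1 and SGA1 were higher in treated anc1Δ than in treated wildtype cells, and GSY1 and GLG1 were lower. In 7 of the 10 the arrays of the strains did not overlap, as in 72% of all genes.

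**Figure D1:**
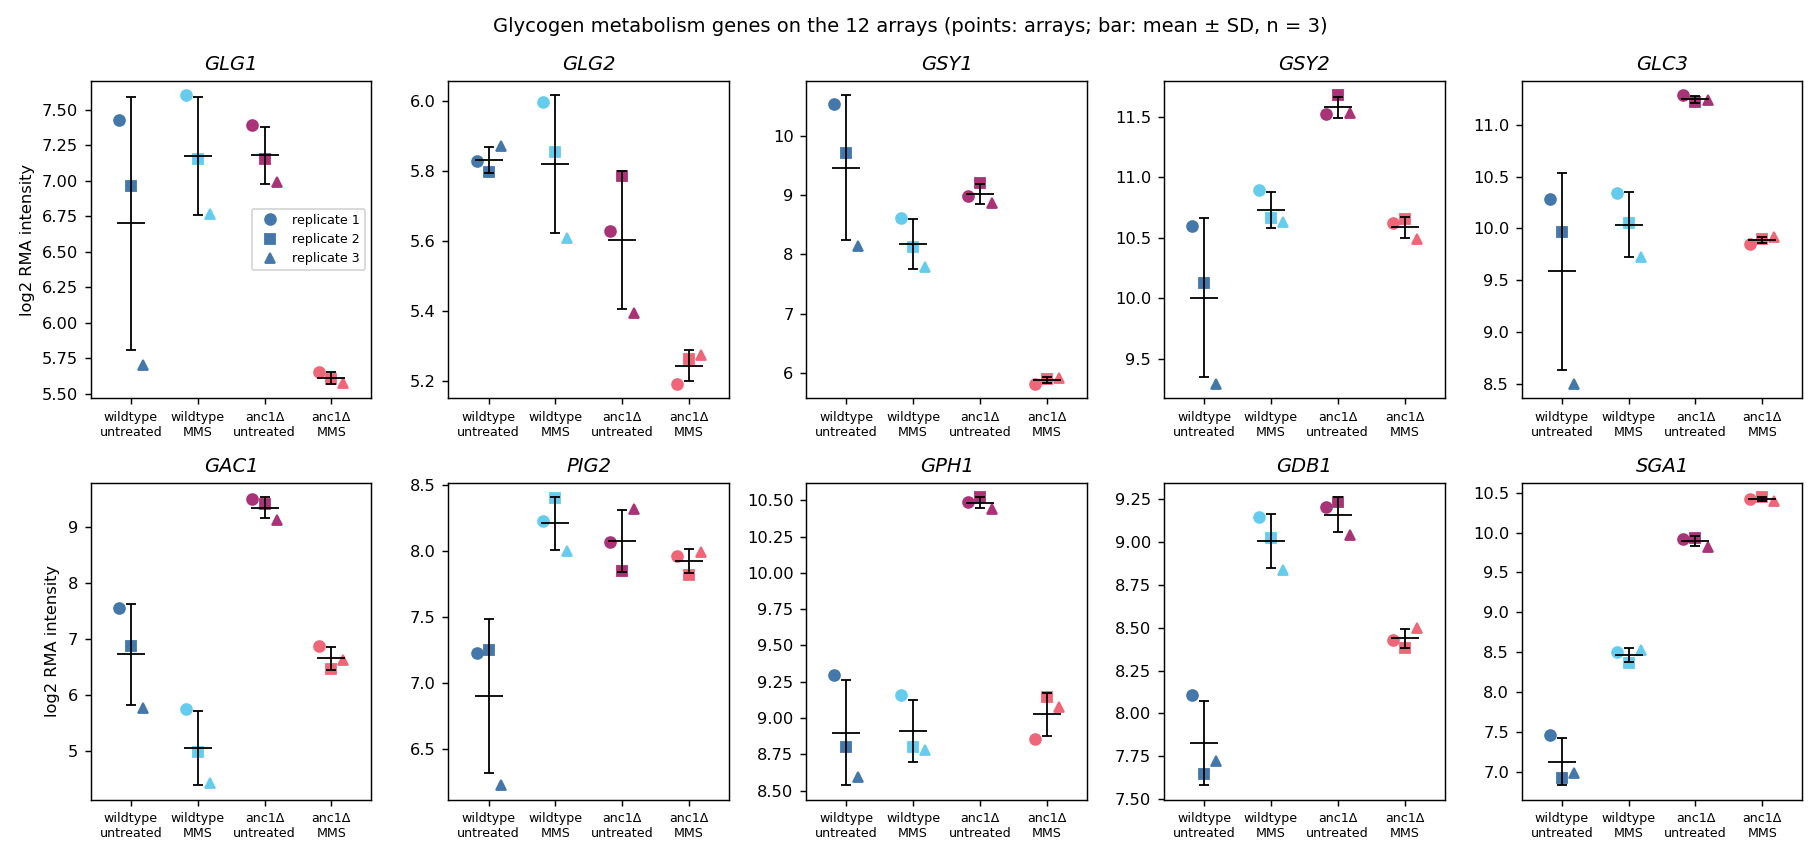
Log2 RMA intensity of the 10 glycogen genes on each array (points, 1 panel per gene) with the mean ± SD of each group of 3 arrays (black bar and whiskers). In untreated wildtype GSY1 runs from an intensity of 284 to one of 1496 between arrays. SGA1, by its brighter probe set, is highest in MMS-treated anc1Δ, at intensities of 1352 to 1394.

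The self-glucosylating initiators, the glycogenins, act first in the pathway, and of the pair GLG1 alone had called changes. GLG1 (YKR058W) measured 173, 125 and 52.1 on the untreated wildtype arrays and 168, 142 and 127 on the untreated anc1Δ arrays. The wildtype arrays spread around those of anc1Δ, with replicate 3 lowest. The log2 change between the strains was 0.48 (SE 0.38, 95% confidence interval -0.39 to 1.35), and it was -0.02 without untreated wildtype replicate 3. With MMS GLG1 measured 194, 143 and 109 in wildtype, overlapping the untreated values, and 50.4, 48.6 and 47.7 in anc1Δ, below every array of the other groups. The fall in anc1Δ was 2.96-fold (log2 change -1.57, SE 0.33, adjusted p = 0.00164 by limma). In wildtype the change of 0.48 did not pass (adjusted p = 0.22), though it did without untreated wildtype replicate 1 (0.84, adjusted p = 0.0316) and became -0.02 without replicate 3. The responses differed by -2.04 (SE 0.47, adjusted p = 0.00677).

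GLG2 (YJL137C), the paralogue of GLG1, was the least variable of the 10. It measured 56.8, 55.6 and 58.5 in untreated wildtype, 63.8, 57.8 and 48.8 in treated wildtype, 49.4, 55.1 and 42.0 in untreated anc1Δ and 36.5, 38.4 and 38.6 in treated anc1Δ. The treated anc1Δ arrays lay below all others, while those of the other groups ran close together. No comparison of GLG2 was called. Under MMS its level was 1.49-fold lower in anc1Δ, just short of the fold limit (log2 change -0.58, SE 0.12, adjusted p = 0.00101 by limma), and it passed the limit without wildtype MMS replicate 3 (-0.68) and without anc1Δ MMS replicate 2 or 3 (-0.59 each). In wildtype the log2 change with MMS was -0.01, with a 95% confidence interval of -0.26 to 0.24.

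Glycogen synthase has a pair of isoforms, of which GSY2 is known as the main one in cells nearing stationary phase. GSY2 (YLR258W) measured 1547, 1117 and 628 in untreated wildtype and 2945, 3276 and 2971 in untreated anc1Δ. Each anc1Δ array was above each wildtype array, and wildtype replicate 3 was lowest. The log2 change of 1.57 (SE 0.28, adjusted p = 0.00318 by limma) is 2.98-fold. In treated cells GSY2 stood at 1909.8, 1625 and 1584 (wildtype) and at 1577, 1612 and 1439 (anc1Δ), so that the strains, far apart before, overlapped. MMS raised GSY2 1.65-fold in wildtype (log2 change 0.73, adjusted p = 0.0144) and lowered it 1.99-fold in anc1Δ (-0.99, adjusted p = 0.00325). The rise in wildtype was below the fold limit without untreated wildtype replicate 3 (0.37) and missed the p limit without wildtype MMS replicate 1 (adjusted p = 0.0528). Under MMS the strains differed by -0.14, with a 95% confidence interval of -0.65 to 0.36, and the responses by -1.72 (SE 0.33, adjusted p = 0.00231).

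GSY1 (YFR015C), the other isoform, fell with MMS where GSY2 rose or fell less. In untreated wildtype it measured 1496, 835 and 284, the widest spread of any member, and in untreated anc1Δ 506, 591 and 466, inside the wildtype range. Treated wildtype arrays gave 394, 279.7 and 220.5, of which the highest exceeded the lowest untreated array. Treated anc1Δ arrays gave 56.5, 59.5 and 60.5, below every array of the other groups. The fall with MMS was 8.82-fold in anc1Δ (log2 change -3.14, SE 0.43, adjusted p = 4.96e-05 by limma), the largest MMS change among the 10 genes. In wildtype the fall was 2.44-fold (-1.29, adjusted p = 0.017), with an exact permutation p of 0.2. That call was lost without untreated wildtype replicate 1 (-0.75, adjusted p = 0.0821) or 2 (-1.17, 0.0511) or wildtype MMS replicate 3 (-1.09, 0.0652), and the value was -1.95 without untreated wildtype replicate 3.

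Under MMS GSY1 was 4.93-fold lower in anc1Δ than in wildtype (log2 change -2.30, adjusted p = 0.000551 by limma). Without MMS the strain difference was -0.45, with a 95% confidence interval of -1.60 to 0.70. It changed sign without untreated wildtype replicate 1 (0.09) and was called without replicate 3 (-1.11, adjusted p = 0.0105). The responses differed by -1.85 (adjusted p = 0.035). The call was lost with the replicate number as a block within the anc1Δ arrays (adjusted p = 0.0543), a fit added after the data were seen. It also missed the limit when any single treated or anc1Δ array other than wildtype MMS replicate 3 was left out (adjusted p between 0.0548 and 0.0853). Without untreated wildtype replicate 3 the difference was -1.19 (adjusted p = 0.0206).

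Set against each other on the same array, the isoforms parted in each comparison. The log2 ratio of GSY2 to GSY1 probe set intensity was 0.05, 0.42 and 1.15 in untreated wildtype, 2.28, 2.54 and 2.84 in treated wildtype, 2.54, 2.47 and 2.67 in untreated anc1Δ and 4.80, 4.76 and 4.57 in treated anc1Δ. The ratio is one of probe set signals and not of transcript numbers, but its changes can be compared. It was higher by 2.02 in anc1Δ than in wildtype without MMS and by 2.16 with MMS, and MMS raised it by 2.02 in wildtype and 2.15 in anc1Δ. In these 4 comparisons the arrays of the groups did not overlap, and the exact permutation p was 0.1, the smallest that 3 against 3 can give (0.133 adjusted over 16 ratio comparisons). For the glycogenins the ratio of GLG1 to GLG2 fell by 1.21 with MMS in anc1Δ (exact p = 0.1) and changed by 0.49 in wildtype (exact p = 0.6), where the arrays overlapped.

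The branching enzyme GLC3 (YEL011W) followed the course of GSY2. It measured 1250.2, 998 and 363 in untreated wildtype and 2491, 2379.6 and 2422 in untreated anc1Δ, all of the latter being higher. The log2 change was 1.66 (SE 0.39, adjusted p = 0.011 by limma), or 3.17-fold, and it ranged from 1.12 to 2.01 as single untreated arrays were left out. The treated arrays of wildtype stood at 1294, 1063 and 843 and those of anc1Δ at 925, 955 and 964. The anc1Δ values thus came down into the wildtype range, a 2.56-fold fall (-1.36, adjusted p = 0.00414). In wildtype treated and untreated arrays overlapped, and the change of 0.45 had a 95% confidence interval of -0.27 to 1.17. It passed without untreated wildtype replicate 1 (0.80, adjusted p = 0.0405) and was -0.09 without replicate 3. Under MMS the strains differed by -0.15 (95% confidence interval -0.87 to 0.57), and the responses by -1.81 (SE 0.47, adjusted p = 0.0124).

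Of the subunits that bring Glc7 to glycogen synthase, GAC1 (YOR178C) moved most. It measured 188, 117 and 54.4 in untreated wildtype and 722, 679 and 562 in untreated anc1Δ. No arrays of the strains overlapped, and the level in anc1Δ was 6.12-fold higher (log2 change 2.61, SE 0.38, adjusted p = 0.00119 by limma). With MMS it measured 53.8, 31.6 and 21.6 in wildtype and 118, 89.0 and 98.5 in anc1Δ. MMS thus lowered GAC1 in both strains, 3.20-fold in wildtype (-1.68, adjusted p = 0.00168) and 6.44-fold in anc1Δ (-2.69, adjusted p = 7e-05). The difference between these falls, -1.01, did not pass (95% confidence interval -2.17 to 0.15). It was called without untreated wildtype replicate 1 (-1.42, adjusted p = 0.0411) and shrank to -0.53 without untreated wildtype replicate 3 and to -0.66 without wildtype MMS replicate 1. Under MMS GAC1 was 3.04-fold higher in anc1Δ (1.60, adjusted p = 0.00303).

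PIG2 (YIL045W), which encodes a putative targeting subunit that binds Gsy2, rose with MMS in wildtype but not by the test in anc1Δ. It measured 149.8, 152 and 74.8 in untreated wildtype and 269, 230.1 and 319 in untreated anc1Δ. Every anc1Δ array was above every wildtype array, a 2.26-fold difference (log2 change 1.18, SE 0.27, adjusted p = 0.00943 by limma). Treated wildtype arrays read 299.9, 338 and 256, and treated anc1Δ arrays 249.9, 226 and 255. The wildtype values were 2.48-fold above the untreated ones (1.31, adjusted p = 0.000206), and the anc1Δ values overlapped the untreated ones (-0.15, 95% confidence interval -0.64 to 0.34). Under MMS the strains differed by -0.28 (95% confidence interval -0.78 to 0.21) and the responses by -1.46 (SE 0.32, adjusted p = 0.00521).

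Glycogen phosphorylase, GPH1 (YPR160W), releases glucose units from the chain ends. It measured 629, 446 and 387 in untreated wildtype and 1434, 1469 and 1392 in untreated anc1Δ. With MMS it measured 571, 447 and 439 in wildtype and 464, 565 and 541 in anc1Δ. Only the untreated anc1Δ arrays stood apart, and the other 3 groups overlapped. GPH1 was 3.00-fold higher in anc1Δ without MMS (log2 change 1.59, SE 0.17, adjusted p = 0.000296 by limma), and MMS lowered it 2.74-fold there (-1.46, adjusted p = 8.56e-06). The MMS change in wildtype was 0.01 (95% confidence interval -0.34 to 0.36), and the strain difference under MMS was 0.11 (95% confidence interval -0.24 to 0.46). The responses differed by -1.47 (SE 0.23, adjusted p = 0.000596).

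The debranching enzyme GDB1 (YPR184W), which acts with the phosphorylase at branch points, turned in opposite directions in the strains. It measured 276, 201 and 211 in untreated wildtype and 567, 521 and 457 in treated wildtype, a 2.26-fold rise with no overlap (log2 change 1.18, SE 0.12, adjusted p = 2.28e-06 by limma). In anc1Δ it measured 589.8, 600.4 and 527 without MMS and 345, 334 and 361 with MMS. All treated anc1Δ arrays were lower, a 1.65-fold fall (-0.72, adjusted p = 0.000337). The difference between the responses, -1.90 (SE 0.18, adjusted p = 1.39e-05), had the smallest p of the 10 genes. Without MMS GDB1 was 2.52-fold higher in anc1Δ (1.33, adjusted p = 0.000261). With MMS it was 1.48-fold lower, short of the fold limit (-0.57, adjusted p = 0.00181), and passed it without wildtype MMS replicate 3 (-0.65) or anc1Δ MMS replicate 3 (-0.60).

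SGA1 (YIL099W) encodes a glucoamylase that breaks down glycogen during sporulation, a program that haploid cells such as these do not enter. By its brighter probe set it was the one gene of the 10 whose mean was highest in treated anc1Δ cells. It measured 177, 121 and 127 in untreated wildtype, 361, 329 and 369 in treated wildtype, 971, 974 and 902 in untreated anc1Δ and 1372, 1394 and 1352 in treated anc1Δ. None of the 4 groups overlapped another. Without MMS SGA1 was 6.80-fold higher in anc1Δ (log2 change 2.76, SE 0.15, adjusted p = 8.97e-06 by limma), the largest strain difference among the 10, and with MMS 3.89-fold higher (1.96, adjusted p = 7.11e-08).

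MMS raised SGA1 2.53-fold in wildtype (log2 change 1.34, SE 0.12, adjusted p = 7.34e-07 by limma). In anc1Δ the rise of 0.53 (adjusted p = 0.00311) was 1.45-fold and short of the fold limit. The responses differed by -0.80 (SE 0.18, adjusted p = 0.00515). The other, dimmer probe set of SGA1 gave 60.6, 52.7 and 38.0 in untreated wildtype, 130.7, 131 and 129 in treated wildtype, 398, 413 and 372 in untreated anc1Δ and 398, 372 and 400.0 in treated anc1Δ. It gave a like strain difference without MMS (2.99) and a like rise in wildtype (1.40), but in anc1Δ treated and untreated arrays overlapped (-0.02, adjusted p = 0.938). Its difference between the responses was -1.41 (SE 0.19, adjusted p = 0.000227). The MMS change of SGA1 in anc1Δ cells and the size of the difference in response therefore depended on the probe set.

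**Figure D2:**
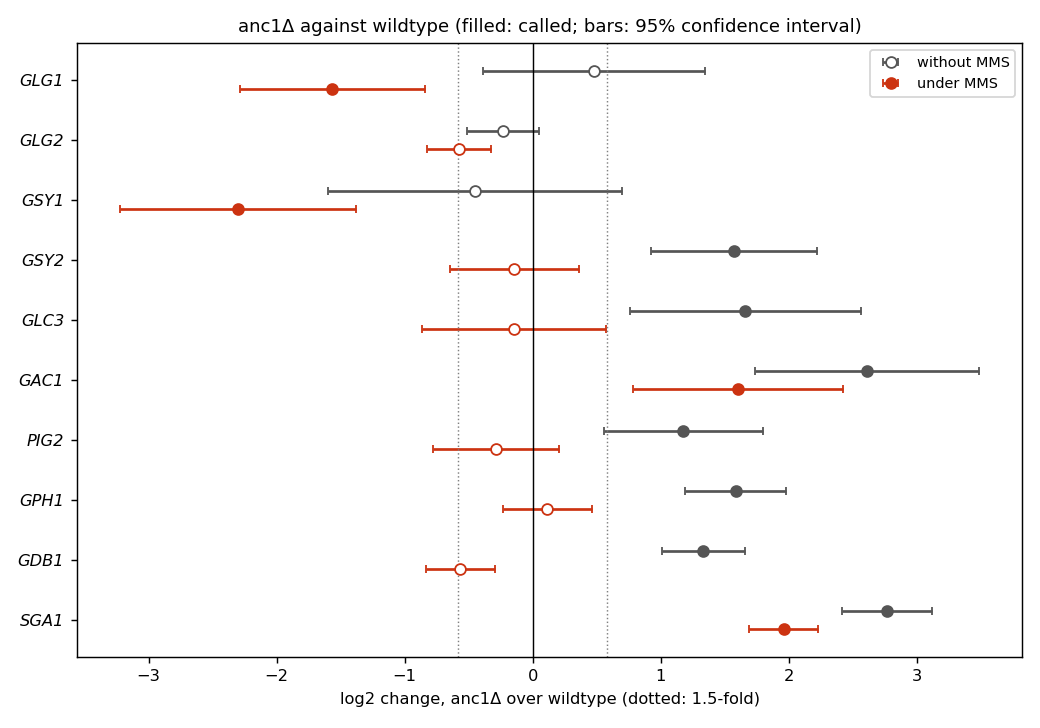
Log2 change of anc1Δ over wildtype for each glycogen gene without MMS (grey) and under MMS (red), with 95% confidence intervals from limma. Filled points were called and dotted lines mark 1.5-fold. GSY2, GLC3, PIG2 and GPH1 lie near 0 under MMS, at -0.14, -0.15, -0.28 and 0.11, and between 1.18 and 1.66 without it.

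**Figure D3:**
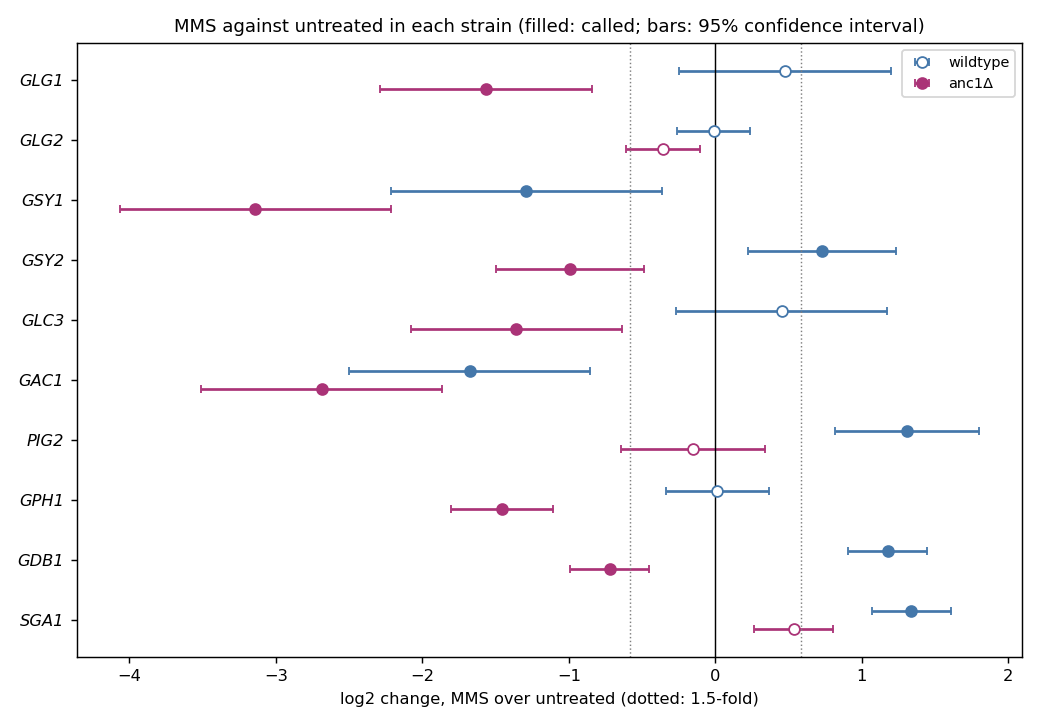
Log2 change with MMS for each glycogen gene in wildtype and in anc1Δ, with 95% confidence intervals from limma, where filled points were called and dotted lines mark 1.5-fold. GDB1 moves by 1.18 in wildtype and -0.72 in anc1Δ, and GSY2 by 0.73 and -0.99.

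Ordered by mean level, the 4 groups fell into several patterns. GSY2, GLC3 and GDB1 were highest in untreated anc1Δ, then in treated wildtype, treated anc1Δ and untreated wildtype. For GSY2 and GLC3 only untreated anc1Δ stood clear of the others, and for GDB1 untreated anc1Δ overlapped treated wildtype while the other neighbours in this order did not overlap. GAC1 was highest in untreated anc1Δ and lowest in treated wildtype, 19.6-fold apart, with untreated wildtype and treated anc1Δ overlapping between them. GSY1 ran from untreated wildtype through untreated anc1Δ, which it overlapped, and treated wildtype down to treated anc1Δ, 12.04-fold apart. For SGA1 by its brighter probe set the order was treated anc1Δ, untreated anc1Δ, treated wildtype and untreated wildtype, 9.84-fold from top to bottom. By the dimmer probe set of SGA1 the anc1Δ groups overlapped, with means of 395 without MMS and 390 with it. PIG2 stood clear of the rest in untreated wildtype, where it was lowest, and GLG1 and GLG2 in treated anc1Δ, where they were lowest.

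The breakdown genes were compared with each other on the same array as well, a pair chosen after their values were seen. The log2 ratio of SGA1 to GPH1 intensity rose in all 4 comparisons, by 1.18 between the strains without MMS, by 1.85 with MMS, and with MMS by 1.32 in wildtype and 1.99 in anc1Δ. Each had non-overlapping arrays and an exact p of 0.1. The ratio of GPH1 to GSY2, of breakdown to synthesis and likewise chosen after the values were seen, was 0.01 higher in anc1Δ than in wildtype without MMS (exact p = 1), where both genes were called higher. It fell by 0.71 with MMS in wildtype and by 0.47 in anc1Δ (exact p = 0.1 each).

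The glycogen genes also set the untreated wildtype arrays apart from each other. The median SD of log2 intensity over these 3 arrays was 0.62 for the 10 genes and 0.15 for all genes. Of the 10, 6 lay in the 5% of genes with the largest SD, namely GSY1, GLC3, GAC1, GLG1, GSY2 and PIG2. The highest array was 5.27 times the lowest for GSY1, 3.46 times for GAC1 and 3.45 times for GLC3. Replicate 1 was highest for 8 of the 10 genes (28.8% of all genes) and replicate 3 lowest for 7 (34.1% of all genes). GLG2 did not share this, with an SD at percentile 4.77 of all genes. The spread was not particular to the glycogen genes. Of the trehalose genes described below, TPS2, NTH1 and TSL1 lay at percentiles 99.9, 99.2 and 99.0 on these arrays. TPS1 and TPS3 lay at 94.3 and 85.9, and NTH2 and ATH1 at 0.57 and 5.18. The phosphoglucomutase gene PGM2 lay at 98.7 and the stress regulator gene YAK1 at 99.6.

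In the other groups the spread was smaller. The median SD of the 10 genes was 0.21 in treated wildtype (0.09 for all genes), 0.14 in untreated anc1Δ (0.10) and 0.05 in treated anc1Δ (0.10). Treated wildtype replicate 1 was highest for 8 of the 10 genes (46.2% of all genes) and replicate 3 lowest for 9 (49.9% of all genes). The 3 untreated wildtype colonies thus differed more in these genes than the treated anc1Δ samples did, and fold changes against untreated wildtype carry that error. What set these arrays apart was not tested.

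**Figure D4:**
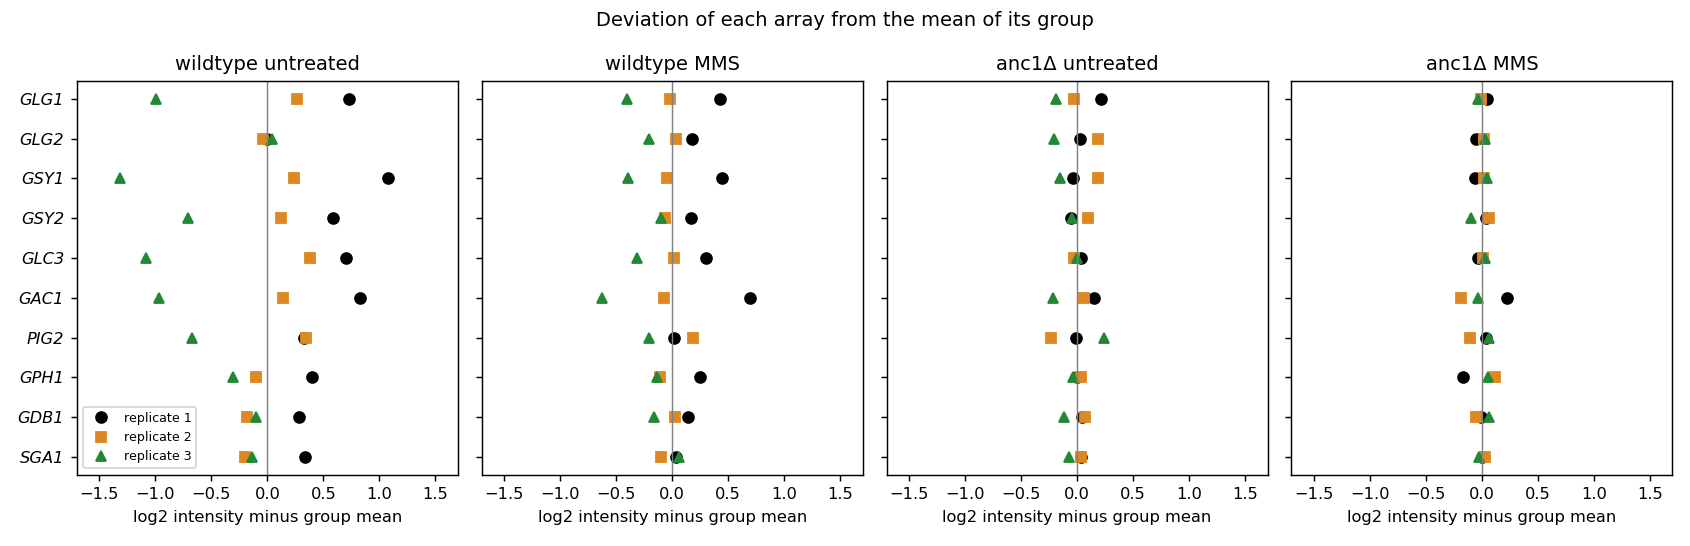
Deviation of each array from the mean log2 intensity of its group for each glycogen gene (circles, squares and triangles stand for replicates 1, 2 and 3). In untreated wildtype replicate 3 is lowest for 7 of the 10 genes, and the treated anc1Δ arrays have a median SD of 0.05.

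Over the 12 arrays the genes shared part of their course. As a description, with arrays in 4 groups and so not independent points, the log2 intensity of GLC3 correlated with the mean of the 10 at r = 0.98, GPH1 and GSY2 at 0.94, GAC1 at 0.81 and GDB1 at 0.71. These values include each gene's own share of the mean. GLG1 (0.65), PIG2 (0.53), GSY1 (0.45), SGA1 (0.40) and GLG2 (0.05) followed less. GSY2 and GLC3 correlated at 0.96 and GPH1 and GAC1 at 0.90, while GLG2 and SGA1 correlated at -0.77.

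Among all other genes, those most like the mean of the 10 were AQY3 (r = 0.990), which encodes a putative channel of the aquaporin family, HAB1 (0.963), GIP2 (0.963), LEU5 (0.963), which encodes a mitochondrial carrier, and YIR016W (0.959). Those most like GSY2 were GIP2 (0.986), IGD1 (0.978), USV1 (0.959), RTC2 (0.959) and AIM19 (0.956). GIP2 encodes a putative regulatory subunit of Glc7 related to Pig2, and Igd1 is known as an inhibitor of the debranching enzyme Gdb1. GIP2 measured 57.3, 41.5 and 22.6 in untreated wildtype, 67.8, 62.2 and 51.0 in treated wildtype, 125, 118 and 115 in untreated anc1Δ and 49.8, 54.6 and 56.9 in treated anc1Δ. As in GSY2, the untreated anc1Δ arrays were highest and untreated wildtype replicate 3 lowest.

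Genes that feed or control the pathway were counted by lists. Of 6 genes that turn glucose into UDP-glucose, the substrate of glycogen synthase, 3 were called higher in anc1Δ without MMS (11.1% of all genes) and 1 lower (12.4%), with a median of 0.59. The hexose kinases GLK1 (log2 change 1.34, adjusted p = 0.00135 by limma) and HXK1 (0.95) and the phosphoglucomutase PGM2 (1.16) were higher, and the other phosphoglucomutase PGM1 was lower (-1.59). Under MMS none was higher in anc1Δ and 4 were lower (18.4% of all genes), with a median of -0.73, namely PGM1 (-1.18), HXK2 (-0.89), PGM2 (-0.83) and UGP1 (-0.63). The MMS response was lower in anc1Δ for 3 of the 6 (14.2% of all genes), PGM2 (-1.99), GLK1 (-1.35) and UGP1 (-0.85), the last encoding UDP-glucose pyrophosphorylase. With MMS 2 rose and 2 fell in wildtype (27.7% and 20.8% of all genes), and in anc1Δ none rose and 4 fell (16% and 15.7% of all genes).

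Among Glc7 and 5 of its other regulators, GIP2 (log2 change 1.66, adjusted p = 0.00282 by limma) and GLC8 (0.76) were called higher in anc1Δ without MMS, 2 of 6 beside 11.1% of all genes. With MMS 5 of the 6 rose in wildtype (27.7% of all genes), while in anc1Δ GLC8 rose (1.00) and GIP2 fell (-1.15), where 16% and 15.7% of all genes did so. The responses were lower in anc1Δ for GIP2 (-1.82) and GLC8 (-0.63), 2 of 6 beside 14.2% of all genes. Of the 5 genes of the cyclin-dependent kinase Pho85 and its cyclins that act on glycogen synthase, none was called between the strains without MMS (23.5% of all genes). None was called in the difference between responses either (23.8% of all genes), and so few genes show little by such counts. With MMS 2 rose in wildtype (27.7% of all genes), while 1 rose and 1 fell in anc1Δ (16% and 15.7% of all genes). Under MMS PCL6 was lower in anc1Δ (-0.59), 1 of 5 beside 18.4% of all genes. Of the 5 genes of the SNF1 kinase, SNF1 alone was called, lower in anc1Δ without MMS (-0.64, adjusted p = 0.00882 by limma), 1 of 5 beside 12.4% of all genes. Under MMS none of the 5 was called between the strains (29.3% of all genes). All 5 were lower there in anc1Δ with arrays that did not overlap (72% of all genes), with a median of -0.48.

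The protein kinase A pathway was represented by 10 of its 11 listed genes. Without MMS RAS1 (log2 change -0.78), PDE2 (-0.84) and TPK3 (-0.69) were called lower in anc1Δ and none higher (12.4% and 11.1% of all genes). The MMS response was lower in anc1Δ for 4 of the 10 (14.2% of all genes), among them the catalytic subunit TPK2 (-1.02) and RAS2 (-0.68). Of 5 stress transcription regulators, MSN4 (1.33, adjusted p = 0.00181 by limma) and GIS1 (0.84) were higher in anc1Δ without MMS (11.1% of all genes). MSN2 went the other way there, short of the fold limit (-0.47, adjusted p = 0.0118 by limma). With MMS YAK1 (1.09) and RIM15 (0.65) rose in wildtype (27.7% of all genes), where MSN4 and GIS1 were not called. MSN4 and GIS1 fell with MMS in anc1Δ (15.7% of all genes), and their responses were lower there, by -1.39 for GIS1 and -1.09 for MSN4 (14.2% of all genes). Of the 2 PAS kinases, which phosphorylate Ugp1 and glycogen synthase, PSK1 was called higher in anc1Δ without MMS (0.67), beside 11.1% of all genes. PSK2 was not called there (-0.12). With MMS both rose in wildtype (27.7% of all genes), PSK1 by 1.31 and PSK2 by 0.67. The response of PSK1 was lower in anc1Δ (-0.78, beside 14.2% of all genes), and PSK2 was lower in anc1Δ under MMS (-0.60, beside 18.4% of all genes).

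Trehalose, the other storage carbohydrate of yeast, has a list of 7 genes. Its counts lay near those of glycogen between the strains without MMS and in the difference between responses. They lay apart from them in the MMS response of each strain. Without MMS 5 of the 7 were called higher in anc1Δ (11.1% of all genes), with a median of 1.46 beside 1.45 for the glycogen genes and -0.10 for all genes. The synthase complex genes TPS2 (log2 change 2.40), TSL1 (2.09) and TPS1 (1.46) and the acid trehalase ATH1 (0.62) were among them. On the untreated wildtype arrays TPS2 measured 1550, 994 and 319 and TSL1 989, 606 and 374, so their changes carry that spread. MMS raised all 7 in wildtype (27.7% of all genes), with a median of 1.54, where 4 of the 10 glycogen genes rose and 2 fell (median 0.46). In anc1Δ 2 of the trehalose genes rose (16% of all genes) and none fell, with a median of 0.37, where 7 glycogen genes fell and none rose (median -1.17). The MMS response was lower in anc1Δ for all 7 (14.2% of all genes), with a median difference of -1.33 beside -0.08 for all genes. The lists were not tested against each other.

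**Figure D5:**
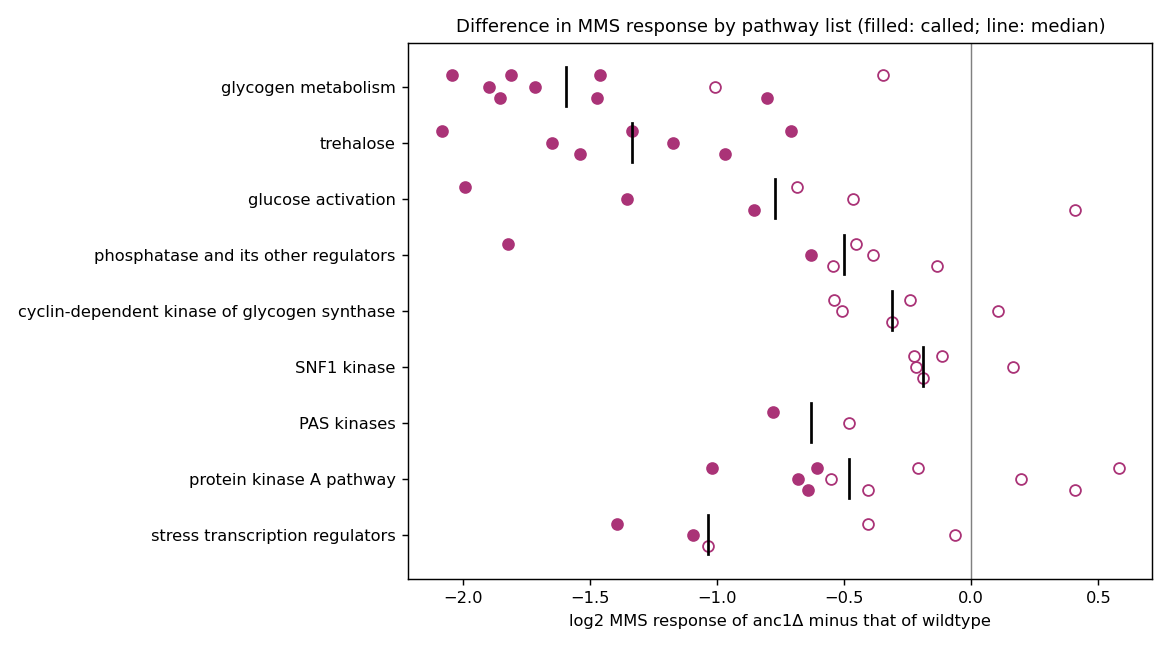
Difference in MMS response (log2 response of anc1Δ minus that of wildtype) for each gene of the glycogen set and of the lists around it (points, filled if called) with the median of each list (line). The medians are -1.59 for the glycogen genes, -1.33 for trehalose and -0.50 for the phosphatase list.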

How the data were processed

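RNA of each sample was hybridized by the authors to an Affymetrix YG-S98 array and normalized by RMA (not given in the sources used here: its version and which arrays it took together). The deposited file holds RMA intensity, not logged, of 9335 probe sets. RMA sets the arrays that it takes together to one distribution, so a shift common to most genes could be hidden. The array medians of treated wildtype still stood above those of the other groups. Log2 was taken here with no further scaling. The 60 control probe sets were left out and 9275 were tested, of which 6504 named 1 gene, 328 several and 2443 none. For 315 of the 5656 genes with several probe sets the brightest over the 12 arrays was used, and symbols were matched through a RefSeq gene table.

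Groups of 3 arrays were compared with limma 3.58.1 (lmFit, eBayes) in R 4.3.3. The strains without MMS were compared on the 6 untreated arrays and all other contrasts on all 12, with 1 mean per group. A call needed an adjusted p (Benjamini-Hochberg over all 9275 probe sets) under 0.05 together with a 1.5-fold change or more. Those limits are the ones of the methods, whose procedure was otherwise different: the authors first removed transcripts called absent in every experiment and used the LPE test, and neither step is part of the limma calls here. Exact permutation tests were two-sided, with 20 arrangements and a smallest p of 0.1. The scripts were tested on simulated data. Replicate numbers come from the sample titles. Between untreated and treated anc1Δ arrays all 3 same-numbered pairs deviated together (correlation 0.17 to 0.37 over probe sets, each the best match). A fit with a block on these numbers within the anc1Δ arrays was therefore added as an alternative after the data were seen. The calls given in the results come from fits without any pairing. In the other pairs of groups the numbers were not taken as pairs. Alternatives were leaving out each array, a replicate block, median centring, quantile normalization, leaving out the dimmest 25% of probe sets, an intensity trend in the prior variance, the LPE test of the methods (rewritten, 100 bins), other fold limits, averaging the probe sets of a gene and the arrays in the fit. The number of arrays limits the precision. Members of the gene set, pathway lists and tests were chosen with earlier results of these data known. All 10 members are named, with up to 4 called genes of smallest p from a pathway list in each comparison described, TAF14 and URA3, and the 5 genes most correlated with the members' mean and with GSY2. A few more genes of the lists are named for their spread or for a change that was not called.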

Additional observations from a re-analysis of the deposited data

Results flagged for a closer look

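For 8 of the 10 glycogen genes the MMS response differed between the strains by a test of the difference itself, the limma interaction. The log2 response of anc1Δ minus that of wildtype was -2.04 for GLG1, -1.85 for GSY1, -1.72 for GSY2, -1.81 for GLC3, -1.46 for PIG2, -1.47 for GPH1, -1.90 for GDB1 and -0.80 for SGA1. The other probe set of SGA1 gave -1.41. GDB1 and GSY2 were called in opposite directions in the strains, but the rise of GSY2 in wildtype was below the fold limit without untreated wildtype replicate 3 (0.37) and by the LPE test (0.54), and missed the p limit without wildtype MMS replicate 1 (adjusted p = 0.0528). The difference for GSY1 missed the limit with a block within the anc1Δ arrays (adjusted p = 0.0543) and without any one of 8 arrays (adjusted p between 0.0548 and 0.0853). The actin 3′ to 5′ ratio rose with MMS in both strains, to between 3.31 and 3.85 in wildtype and between 3.43 and 3.998 in anc1Δ, and its part in these differences was not tested. The SPT15 ratio of treated wildtype, 4.37 to 4.94, overlapped that of the untreated arrays. Groups of 3 arrays are too small for a test of single outlying arrays.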

How the results depend on the processing

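The number of glycogen genes called stayed within 1.5 times its value under every alternative run. Leaving out single arrays gave 7 to 8 genes for the strains without MMS, 5 to 7 for MMS in wildtype, 7 for MMS in anc1Δ, 4 to 6 for the strains under MMS and 7 to 9 for the difference in response. A 2-fold limit left 7, 5, 5, 4 and 7 in the same order, and no fold limit 7, 6, 9, 6 and 8. The LPE test gave 8, 5, 7 and 6 and was not run for the difference in response. With the replicate number as a block the counts were 7, 6, 7, 4 and 8, and no call of the 10 genes changed. With a block within the anc1Δ arrays only, where the numbers pair the samples, 7 genes were called for MMS in anc1Δ and 7 for the difference in response. GSY1 lost its call in the latter (adjusted p = 0.0543), and no other call changed. Of the values of single genes 717 kept direction and call, 16 lost the call, 13 gained it and 14 changed sign.

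The changes of sign were in small, uncalled values. The MMS change of GPH1 in wildtype was -0.10 after median centring and -0.087 after quantile normalization, and that of GLG2 was 0.034 after quantile normalization and 0.026 by the LPE test. As single arrays were left out, values ranged from -1.11 to 0.091 for GSY1 and from -0.019 to 0.84 for GLG1 between the strains without MMS. For MMS in wildtype they ranged from -0.14 to 0.21 for GPH1, from -0.10 to 0.093 for GLG2, from -0.022 to 0.84 for GLG1 and from -0.089 to 0.80 for GLC3. For the strains under MMS GLC3 ranged from -0.31 to 0.0021. GSY1 without MMS was called by the LPE test (-0.72), GSY2 in wildtype fell below the fold limit by it (0.54), and GSY1 in wildtype missed the p limit when only the compared arrays were fitted (adjusted p = 0.0548).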
